A study of Mus musculus with 6 samples.

Results

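Troponin is the calcium switch of the striated muscle thin filament. Each of its 3 subunits has separate slow and fast genes. Troponin I and T also have a cardiac gene, while slow and cardiac muscle share that of troponin C. The 8 genes TNNC1, TNNC2, TNNI1, TNNI2, TNNI3, TNNT1, TNNT2 and TNNT3 were taken by name, and every probe of the array carrying one of these names was kept on its own. Of the 8 genes 7 were found, each with 1 probe, among 30854 gene names in all, and TNNT2 was not analysed here. The RNA came from C2C12 cells, a mouse myoblast line that fuses into myotubes in low serum. Cells received 60 nM of either scramble siRNA (Scramble, 3 samples) or siRNA against *Dj1* (siDJ-1, 3 samples), were moved to differentiation medium 48 h later and were kept there for 96 h. Both groups therefore share the line, the transfection and the 4 days of differentiation, and 1 siRNA against *Dj1* was used. All 6 samples were hybridised to a single Mouse WG-6 v2 BeadChip, and the replicates are labelled by number only. Nothing in the labels says that they were separate cultures, so the p-values measure the spread between these samples, which may be technical.

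Troponin C binds calcium, troponin I holds actin and myosin apart until calcium arrives, and troponin T anchors the complex to tropomyosin. TNNC1 encodes the troponin C of slow and cardiac muscle and TNNC2 that of fast muscle. TNNI1, TNNI2 and TNNI3 encode the slow, fast and cardiac troponin I, and TNNT1, TNNT3 and TNNT2 the slow, fast and cardiac troponin T. Cultured myotubes make slow and fast isoforms side by side, and the isoform mix changes as muscle matures.

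The siRNA target was read first. *Park7*, the gene that encodes DJ-1, had deposited signals (mean bead intensity, in arbitrary units) of 12020, 10900 and 12251 in Scramble and 5935, 6586 and 4234 in siDJ-1. All 3 siDJ-1 arrays were below all 3 Scramble arrays. On the normalised log2 scale the difference was -1.16 (SE 0.14, 95% interval -1.49 to -0.84, limma adjusted p = 0.00344), and it was below 0 and past the threshold in 17 of 17 alternative settings.

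The cells carried the markers of myotubes. Of the 9 myotube markers 8 were tested, with 13 probes, among them *Myog*, *Des*, *Ckm*, *Acta1*, *Myh3* and *Ttn*, and *Mymx* was not analysed here. Of 8 cardiomyocyte markers only *Myh6* passed the detection filter, with a log2 difference of 0.68 (adjusted p = 0.103, called higher without Scramble replicate 3 and with scaling to the 75th percentile without background correction), while *Nppa*, *Nppb*, *Myl7*, *Gata4*, *Nkx2-5*, *Tbx5* and *Hand2* did not. None of the 3 adipocyte markers passed it.

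Counted over the family, 6 of the 7 troponin genes were detected and tested, and 3 of these 6 were called lower in siDJ-1 at an adjusted p under 0.05. They were TNNC2, TNNI2 and TNNT3, the fast isoform of each subunit. TNNI2 was past the threshold in 7 of 17 alternative settings. By limma 0 of the 6 were called higher, and 0 at an unadjusted p under 0.05 or in any of the 17 alternatives. Over all 17890 tested probes 30.1% were called, 13.6% lower and 16.5% higher, so a probe taken from the whole array was called often. Without siDJ-1 replicate 1 the number of called probes was 2444 and without siDJ-1 replicate 3 it was 2612, against 5387 with all arrays. The median log2 difference of the 6 troponins was -0.28, against 0.047 over all tested probes. With scaling to the 75th percentile it was -0.0325, against 0.0694, and -0.0887, against 0.0422, when the background correction was also left out. In bulk RNA, fewer myotubes and less troponin RNA per myotube cannot be told apart.

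The calcium-binding subunit gave the widest separation between 2 isoforms. TNNC2, the fast troponin C, had deposited signals of 24589, 25545 and 23501 in Scramble and 15124, 18938 and 12045 in siDJ-1. The highest siDJ-1 array stayed below the lowest Scramble array, and the siDJ-1 arrays were spread more widely (SD 3450 against 1020, n = 3 each). After normalisation the log2 values were 14.68, 14.65 and 14.67 in Scramble and 13.84, 14.05 and 13.64 in siDJ-1. TNNC2 fell by 0.82 on the log2 scale (SE 0.12, 95% interval -1.12 to -0.53, limma adjusted p = 0.00593), which leaves 56.5% of the Scramble level. It was past the threshold in 17 of 17 alternative settings, where the difference ran from -0.92 to -0.60.

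TNNC1, which supplies troponin C to slow and cardiac muscle, had deposited signals of 37227, 43481 and 37862 in Scramble and 38973, 43137 and 37373 in siDJ-1. The groups overlapped, and replicate 2 was the brightest array in each. After normalisation all 3 siDJ-1 arrays lay below all 3 Scramble arrays, at 15.21, 15.22 and 15.18 against 15.30, 15.35 and 15.34. The log2 difference was -0.12 (SE 0.087, 95% interval -0.33 to 0.085, adjusted p = 0.327), and with scaling to the 75th percentile it was 0.12, or 0.064 when the background correction was also left out. The highest signal of any probe ran from 44330 to 52360 over the 6 arrays, and whether signals this bright are compressed was not tested.

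**Figure D1:**
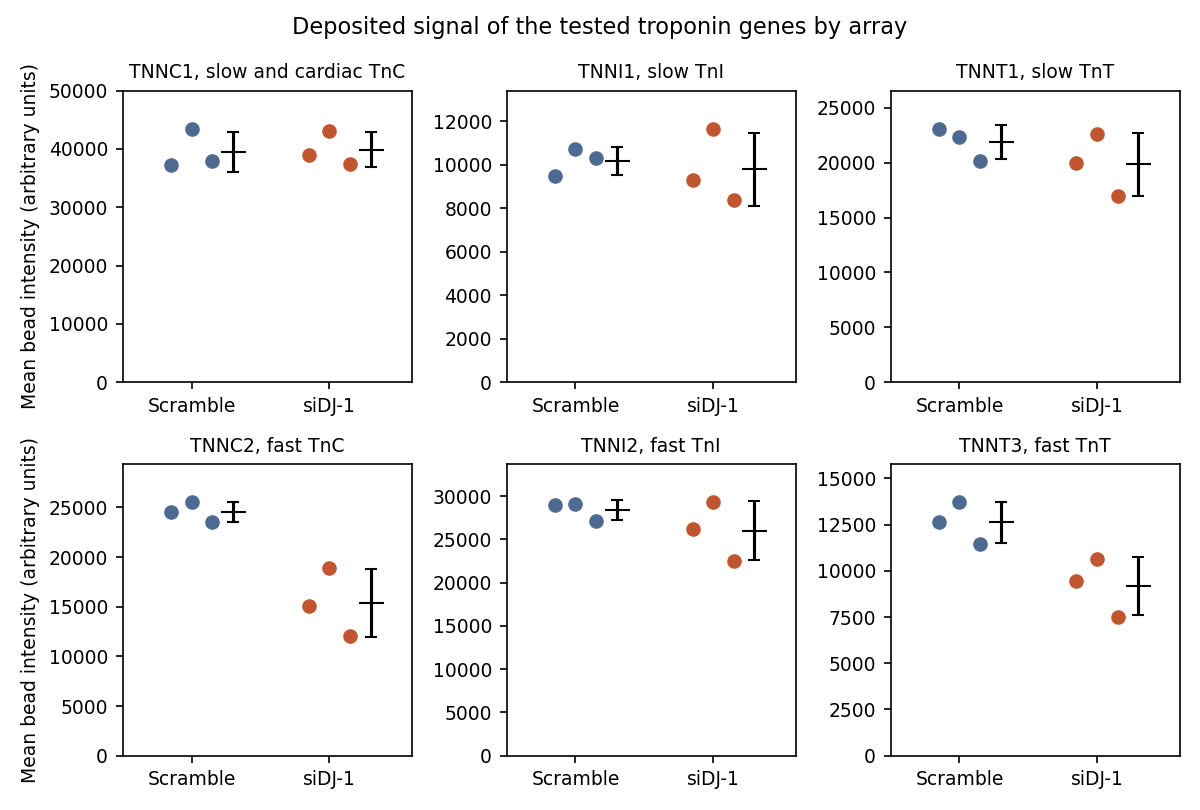
Deposited mean bead intensity (arbitrary units, linear axis from 0) of the 6 tested troponin genes, 1 point per array, with the mean and SD of 3 arrays beside each group. The groups are apart for TNNC2 (fast TnC) and TNNT3 (fast TnT) and overlap for TNNC1, TNNI1, TNNI2 and TNNT1.

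The promoters of this pair are shown because the 2 genes encode the same subunit and their differences between groups were the least alike. RefSeq promoters (GRCm38.p6) were at hand for 6 of the 8 genes, with 8 start sites of which the 2 of TNNI1 overlap, and TNNI2 and TNNT3 have no entry. The 250 bases upstream of each start were searched on both strands for the E-box CANNTG, bound by MyoD-family factors, for the M-CAT element CATTCC, bound by TEAD factors, for TATAAA, and for the MEF2 and CArG elements by name. Capitals mark a match, and no matches overlapped.
TNNC1, chr14:31208062-31208311, plus strand: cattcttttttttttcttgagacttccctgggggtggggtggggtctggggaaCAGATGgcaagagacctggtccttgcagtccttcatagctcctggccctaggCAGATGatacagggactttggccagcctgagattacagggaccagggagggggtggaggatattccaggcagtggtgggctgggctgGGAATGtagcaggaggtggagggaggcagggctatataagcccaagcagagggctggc
TNNC2, chr2:164779735-164779984, minus strand: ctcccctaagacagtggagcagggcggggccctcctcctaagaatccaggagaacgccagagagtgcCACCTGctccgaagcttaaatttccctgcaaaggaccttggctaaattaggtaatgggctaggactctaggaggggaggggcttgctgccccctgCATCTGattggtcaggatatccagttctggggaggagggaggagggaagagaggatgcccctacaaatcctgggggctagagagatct

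Both promoters hold 2 E-boxes, and the TNNC1 promoter also holds 1 M-CAT element, read on the opposite strand as GGAATG. An E-box was present in 8 of the 8 troponin promoters and in 66.2% of all 32851 promoters of the table. An M-CAT element was present in 2 of 8 (12.6% of all), TATAAA in 1 of 8 (12.4%), and MEF2 and CArG elements in 0 of 8 (2.92% and 1.47%). A match is a description of these letters and shows no binding.

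The inhibitory subunit showed smaller differences. TNNI2, the fast troponin I, had deposited signals of 28957, 29158 and 27111 in Scramble and 26162, 29329 and 22557 in siDJ-1. The groups overlapped, since siDJ-1 replicate 2 had the highest value of all 6. After normalisation the 3 siDJ-1 values (14.60, 14.64 and 14.49) were all under the Scramble values (14.94, 14.85 and 14.88). The log2 difference was -0.31 (SE 0.095, 95% interval -0.54 to -0.085, limma adjusted p = 0.0481). The call was lost with any 1 of the 6 arrays left out, where the difference was -0.34 to -0.26 and the limma adjusted p 0.0776 to 0.139. Calls over all tested probes also fell then, to between 2444 and 5302, from 5387 with all arrays. With scaling to the 75th percentile the difference was -0.026 (adjusted p = 0.86), and with the replicate number as a block the adjusted p was 0.0947.

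TNNI1, the slow troponin I, which is also the form made early in muscle development, had deposited signals of 9468, 10737 and 10300 in Scramble and 9281, 11660 and 8392 in siDJ-1. The siDJ-1 arrays held both the highest and the lowest value, so the groups overlapped, and they also overlapped after normalisation (13.21, 13.35 and 13.38 against 13.17, 13.35 and 13.14). The log2 difference was -0.10 (SE 0.11, 95% interval -0.35 to 0.16, adjusted p = 0.53) and was 0.040 with scaling to the 75th percentile.

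TNNI3, the cardiac troponin I, was not detected. Its signals were 169.1, 177.8 and 151.4 in Scramble and 147.2, 151.6 and 147.3 in siDJ-1, with detection p-values from 0.0791 to 0.626. These signals are near the array medians of 152.3 to 167.4, and no fold change is given.

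The tropomyosin-binding subunit had 1 isoform called and 1 not. TNNT3, the fast troponin T, had deposited signals of 12662, 13722 and 11469 in Scramble and 9431, 10620 and 7502 in siDJ-1. The groups did not overlap, either here or after normalisation (13.66, 13.71 and 13.54 against 13.19, 13.20 and 12.95). TNNT3 fell by 0.52 on the log2 scale (SE 0.11, 95% interval -0.79 to -0.26, limma adjusted p = 0.0164), to 69.6% of the Scramble level. It was past the threshold in 16 of 17 alternative settings, the exception being without siDJ-1 replicate 3, where it was -0.44 (adjusted p = 0.0524). Without that array 1 troponin, TNNC2, was called lower.

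TNNT1, the slow troponin T, had deposited signals of 23125, 22339 and 20140 in Scramble and 19971, 22643 and 16934 in siDJ-1. One siDJ-1 array lay inside the Scramble range and the groups overlapped. After normalisation they did not (14.58, 14.42 and 14.39 against 14.24, 14.29 and 14.13). The log2 difference was -0.24 (SE 0.10, 95% interval -0.49 to 0.006, adjusted p = 0.124), and with scaling to the 75th percentile it was -0.039.

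**Figure D2:**
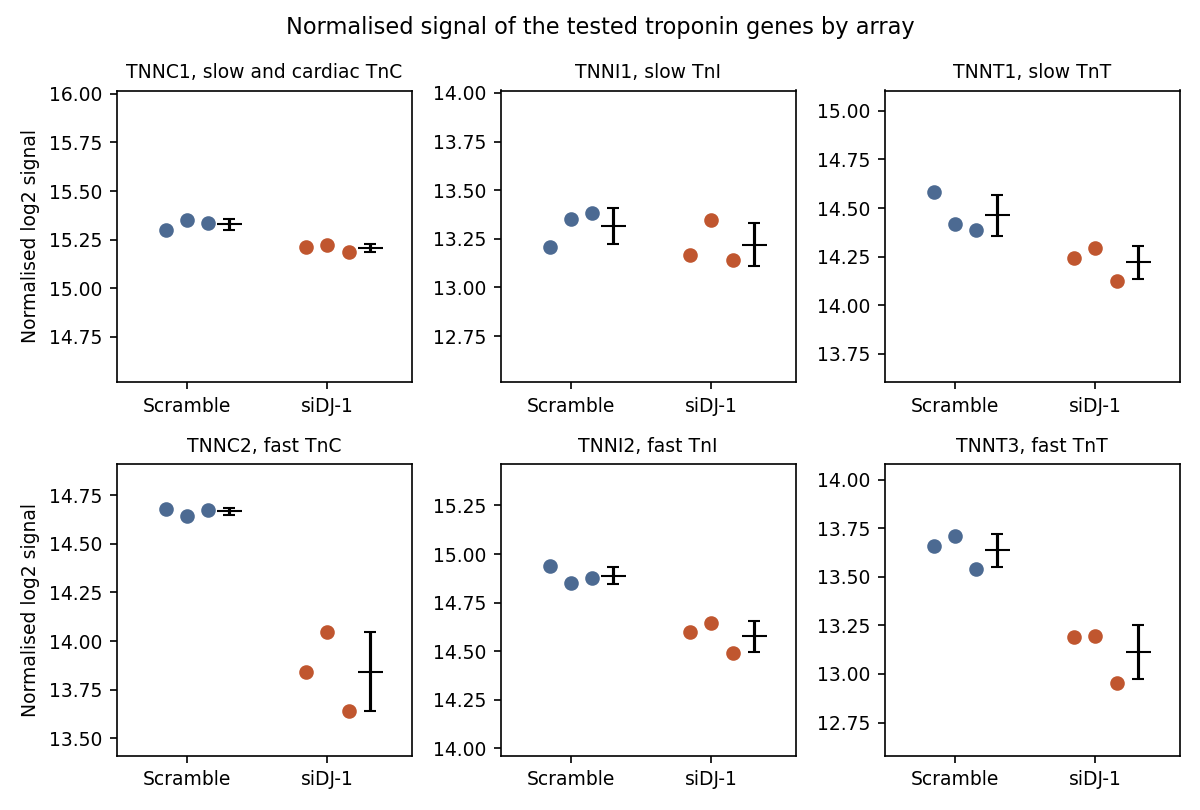
Normalised log2 signal of the same 6 genes by array, with the mean and SD of 3 arrays; every panel spans the same height on the log2 axis, which does not start at 0. The siDJ-1 points lie below the Scramble points for 5 genes and overlap for TNNI1, and for TNNC1 the sign of the difference turns with scaling to the 75th percentile.

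Normalisation thus decided whether several of these groups overlapped. In the deposited signals 2 of 6 troponins, TNNC2 and TNNT3, were lower on every siDJ-1 array, and 4 overlapped. The share of all probes that separate in the deposited signals was not counted, so nothing is read from this count. In the normalised values 5 of 6 were lower on every siDJ-1 array, beside 21.97% of all tested probes, and 0 were higher, beside 26.5%. Within siDJ-1, replicate 2 had the highest and replicate 3 the lowest value for 6 of 6 troponins, both before and after normalisation. The 75th percentile of all signals was 302.3 and 256.2 on these arrays and 285.5 on siDJ-1 replicate 1. In the deposited signals of Scramble, replicate 2 was highest for 5 of 6 troponins and replicate 3 lowest for 4 of 6. After normalisation Scramble replicate 2 was highest for 2 of 6 and replicate 3 lowest for 2 of 6.

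**Figure D3:**
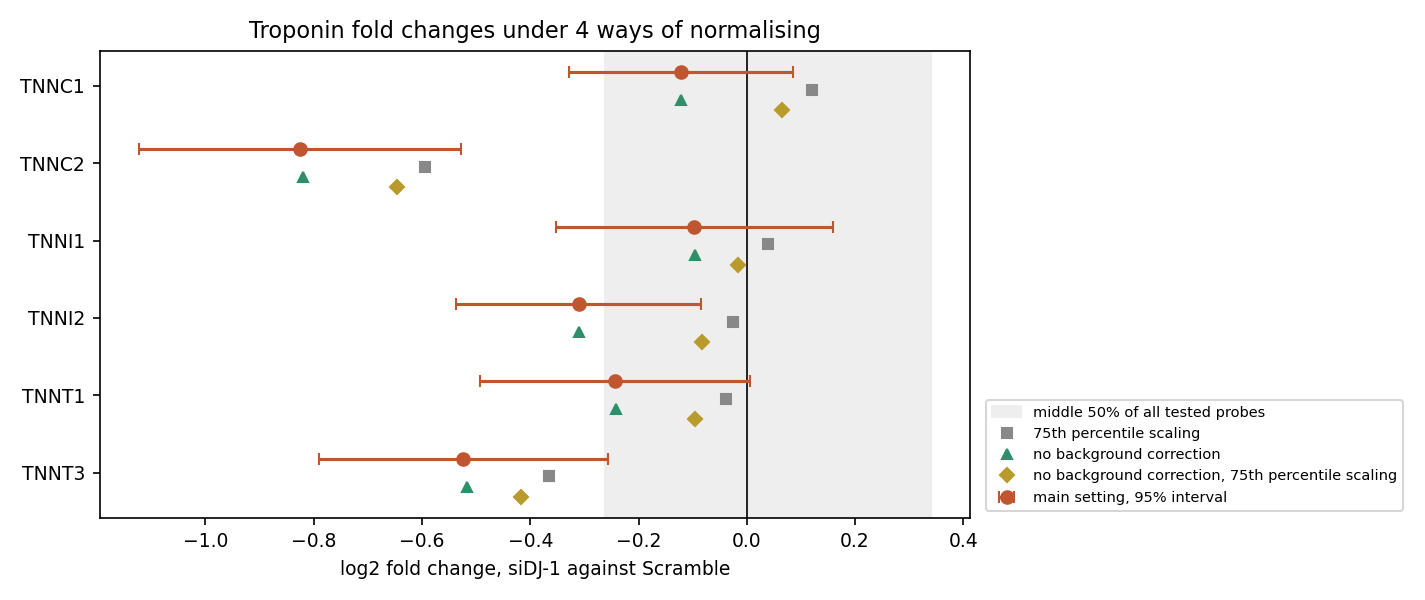
Log2 fold change of each tested troponin, siDJ-1 against Scramble, with its 95% interval in the main setting and its value under 3 other ways to normalise; the grey band holds the interquartile range of all tested probes (-0.26 to 0.34). TNNC2 and TNNT3 stay left of 0 under each, while TNNC1 lies right of 0 with both scalings to the 75th percentile and TNNI1 with 1 of them.

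The readings of the 6 genes differed in precision. Each value is a mean over 23 to 52 beads, and its standard error over beads was 2.31% to 7.20% of the signal. The largest of these belonged to TNNI2 in Scramble replicate 3, which had 23 beads. Every tested troponin had a detection p of 0 on all 6 arrays, meaning that no negative control was as bright.

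The slow and fast isoforms of 1 subunit were next compared within each array. The log2 difference between 2 probes says nothing about which RNA is more abundant, but its shift between groups describes unequal change in signal, and an amount added to the log2 value of every probe of an array cancels. Compression of bright signals, which was not tested for TNNC1, would not cancel. Quantile normalisation, which can move 2 probes of an array by unlike amounts, does not cancel either. The values below are those of the main setting. TNNC1 minus TNNC2 was 0.62, 0.70 and 0.66 in Scramble and 1.37, 1.17 and 1.54 in siDJ-1. The groups were far apart, with a shift of 0.70 (SD 0.04 and 0.19). TNNT1 minus TNNT3 was 0.92, 0.71 and 0.85 in Scramble and 1.05, 1.10 and 1.17 in siDJ-1. This shift was 0.28 (SD 0.11 and 0.06), again with no overlap. TNNI1 minus TNNI2 was -1.73, -1.50 and -1.49 in Scramble and -1.43, -1.30 and -1.35 in siDJ-1. The groups did not overlap, with a shift of 0.21 (SD 0.13 and 0.07).

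In the main setting all 3 pairs had a higher slow minus fast difference on every siDJ-1 array than on any Scramble array. With scaling to the 75th percentile, with or without background correction, the troponin I groups overlapped. Among single tested probes separation of the groups was common in the main setting, with 21.97% lower and 26.5% higher on every siDJ-1 array. The 2-sided exact permutation p was 0.1 for each pair and 0.1 after Benjamini-Hochberg over the 3 pairs, which is the smallest p that 3 against 3 arrays can give. Over 13 alternative settings the shift stayed above 0, between 0.60 and 0.80 for troponin C, 0.22 and 0.33 for troponin T, and 0.066 and 0.26 for troponin I, whose lowest value came with scaling to the 75th percentile (p = 0.5, exact permutation). The other 3 pairs chosen, TNNI3 with TNNI1, TNNT2 with TNNT3 and TNNT2 with TNNT1, had no tested probe on 1 side and were left out.

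**Figure D4:**
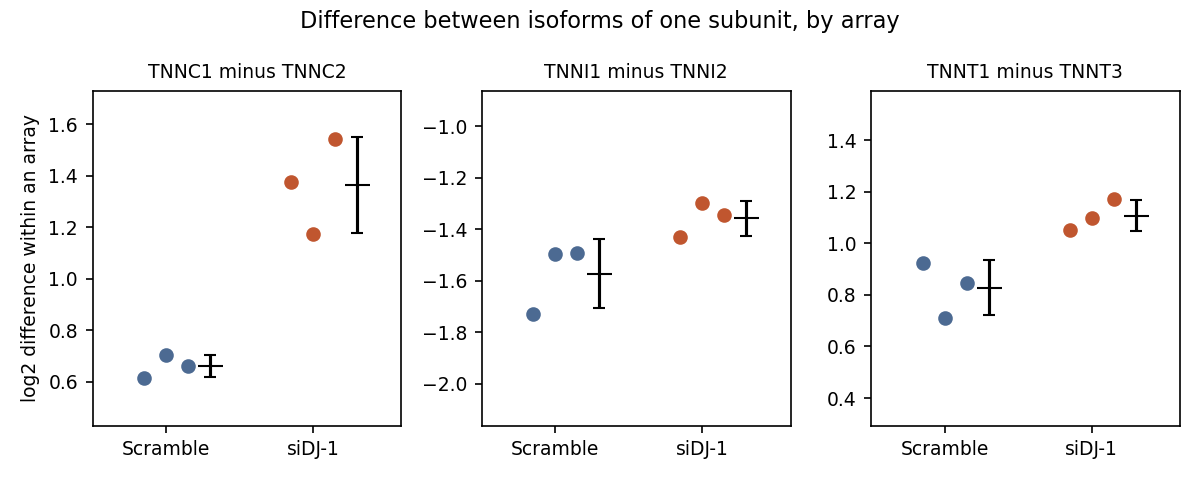
Log2 difference between the slow and the fast isoform of each troponin subunit within an array, 1 point per array, with the mean and SD of 3 arrays; the 3 panels span the same height. In the main setting the siDJ-1 points lie above the Scramble points in each panel, by 0.70 for troponin C, 0.21 for troponin I and 0.28 for troponin T on average. The troponin I groups overlap with scaling to the 75th percentile.

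Troponin I and T genes lie in pairs on the chromosomes. In the RefSeq table (GRCm38.p6) no gene lies between *Tnnt1* and *Tnni3*, 1 gene (*Lad1*) lies between *Tnni1* and *Tnnt2*, and 1 gene (*Lsp1*) between *Tnni2* and *Tnnt3*. The last pair joins the fast troponin I and the fast troponin T, with differences of -0.31 and -0.52. In the first pair TNNT1 was detected on every array and its neighbour TNNI3 on none.

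Other genes followed the troponins closely over the 6 arrays, as a description over 2 groups of 3. The 3 probes most like TNNC2 were those of *Sec13*, *Gtf3c2* and *Myoz2*, with Pearson r of 0.9997, 0.9995 and 0.9991, and *Myoz2* encodes a Z-disc protein of slow fibres. For TNNT3 they were *Dnm1l* (0.9988), LOC100045697 (0.9963) and *Ccdc86* (0.9962), and for TNNI2 E030026I10RIK (0.9975), *Pex2* (0.9967) and *Dcaf13* (0.9966). For TNNC1 they were *Ppt1* (0.9996), *Trim8* (0.9994) and *Snrpd3* (0.9986). For TNNI1 they were *Lrrc39* (0.9994), *Hsd3b7* (0.9874) and *Mndal* (0.9859). They rest on few arrays, and nothing about shared control follows from them.

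The fast troponins lay beside a fast fibre list that was lower as well. Of all tested probes 13.6% were called lower and 16.5% higher, the shares to set beside each list below. Of the fast fibre list's 15 tested probes 11 were called lower and 0 higher (7 to 10 lower with 1 array left out), with a median log2 difference of -0.97. *Myh4*, a fast myosin heavy chain, was at a log2 difference of -3.72 and was detected on 1 of 3 siDJ-1 arrays (limma adjusted p = 0.00224). *Pvalb*, a calcium buffer, was at -2.73 and *Myh1* at -2.19 (limma adjusted p = 0.00267 and 0.00284). *Myoz1*, detected on 2 of 3 siDJ-1 arrays, was at -2.15 (limma adjusted p = 0.00553). Since their siDJ-1 signals were partly undetected, the sizes for *Myh4* and *Myoz1* are not exact. Of the 14 probes of the slow fibre list 3 were called lower and 1 higher (1 to 4 and 0 to 1 with 1 array left out), with a median of -0.051. *Myl6b* was at -0.78, *Myoz2* at -0.41, *Tpm3* at -0.38 on 1 of 4 probes and *Csrp3* at 0.45 on 1 of 3.

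Among thin filament partners of troponin 6 of 19 probes were called lower and 1 higher (3 to 6 and 0 to 1 with 1 array left out), with a median of -0.12. *Lmod3*, a filament nucleator, was at -0.97 and *Cfl2* at 0.43 on 1 of 2 probes. Of the tropomyosins, *Tpm2* was at -0.66 and -0.58 on 2 of 3 probes and *Tpm1* at -0.58 and -0.53 on 2 of 2. *Tpm3*, which is also in the slow fibre list, was at -0.38 on 1 of 4. In the developmental sarcomere list 4 of 8 probes were called lower and 0 higher (2 to 4 lower with 1 array left out), 3 of them for perinatal *Myh8* (-1.11 to -1.01) and 1 for *Myl4* (-0.40), with a median of -0.29. Of 26 probes of transcription factors 9 were called lower and 1 higher (6 to 8 and 0 to 3), with a median of -0.10. *Mef2c* was lower on 3 of 3 probes (-2.61 to -2.37), *Tead4* on 2 of 2 (-1.66 and -1.10), *Myod1* at -0.90 and *Myf6* at -0.66. *Nfatc1* was at least 1.23-fold higher on 1 of 4 probes, the only transcription factor probe called higher. That probe was not detected in Scramble and passed the detection filter through its siDJ-1 arrays alone, so nothing is read from the count of 1 higher. Among calcium release and uptake genes 4 of 19 probes were called lower and 2 higher (1 to 3 and 1 to 2), with a median of -0.071. The 6 *Asph* probes disagreed (-1.63 to 0.78), *Stac3* was at -0.61, *Cacna2d1* at -0.58 and *Ryr1* at -0.47 on 1 of 4 probes. *Sln* was at 0.95, a size that is not exact, since it was detected on 1 of 3 Scramble arrays. With 4 of 14 and 6 of 19 probes called, the slow fibre and calcium lists were called about as often as all probes (30.1%). Over the 17 alternative settings the median ran from -1.14 to -0.482 for the fast fibre list (lowest without Scramble replicate 2, highest with the stricter filter), -0.216 to -0.0153 for thin filament partners, -0.344 to -0.0377 for developmental genes, -0.27 to 0.0945 for slow fibre genes, -0.256 to 0.000605 for transcription factors and -0.288 to 0.0121 for calcium genes.

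**Figure D5:**
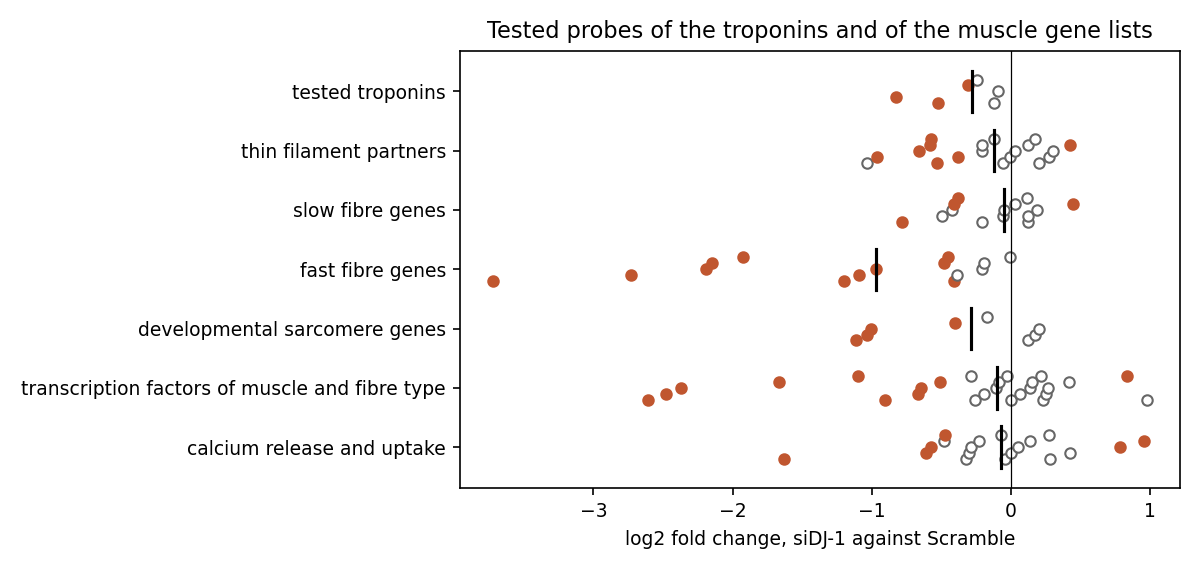
Log2 fold change of every tested probe of the troponins and of 6 muscle gene lists, filled where the adjusted p is under 0.05, with the median of each row as a black bar. The lowest point of the fast fibre list is *Myh4* at -3.72, a size that is not exact, since it was detected on 1 of 3 siDJ-1 arrays. The troponins lie between -0.82 and -0.10, where TNNC1 and TNNI1 turn sign with scaling to the 75th percentile.

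Some probes of the marker lists were called, beside 13.6% lower and 16.5% higher of all tested probes. Of 13 myotube marker probes 5 were called lower (*Ttn*, *Mymk* and *Des*) and 0 higher, with 3 lower without siDJ-1 replicate 1 and 2 without siDJ-1 replicate 3. Of 6 probes of dividing or unfused myoblasts 1 was called lower (1 of 2 for *Ccnb1*) and 0 higher, with *Pax7* and *Myf5* not detected. The 1 lower became 0 without siDJ-1 replicate 1 or without siDJ-1 replicate 3, and 1 to 2 were called higher in 6 of 17 alternative settings. Of 9 smooth muscle probes 2 were called lower (2 of 5 for *Acta2*) and 3 higher (*Smtn*), with *Myh11* and *Cnn1* not detected. With probes averaged per gene 0 were lower, and with a trended prior variance 4. The 3 tested fibroblast probes, 2 for *Dcn*, the brightest of the list, and 1 for *Pdgfra*, were called lower, *Pdgfra* at an adjusted p of 0.0493, with *Thy1* and *Lum* not detected. Only 2 of the 3 were called in 9 of 17 alternative settings, 5 of them with 1 array left out. The summed signal of the fibroblast list was 8590, 8718 and 7119 in Scramble and 3841, 5124 and 2795 in siDJ-1. The part of these cell types in the troponin differences was not tested.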

How the data were processed

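RNA of 3 Scramble and 3 siDJ-1 samples was measured on 1 Illumina BeadChip. The authors quantified it in GenomeStudio and deposited, for 45281 probes, the mean bead intensity with its standard error, without normalisation or background subtraction. They also deposited the number of beads (other than intensity) and a detection p-value against negative controls. Intensities were corrected with normexp (neqc, offset 16), quantile normalised and set on the log2 scale in limma 3.58.1 (R 4.3.3). The 17890 probes detected (p under 0.05) on 3 or more arrays entered limma's moderated fit (lmFit, eBayes), and p-values were adjusted over all of these by Benjamini-Hochberg (threshold 0.05). This normalisation assumes like distributions on all arrays. Of the probes, 32345 were named through RefSeq. The fit was tested on simulated data in which every probe had the same spread and few probes changed. The simulated differences were larger than those of the troponins, so differences of the troponins' size were not tested. The number of arrays limits the precision. The members and lists were chosen with earlier results of these data known. All troponin probes and *Park7* were named, up to 4 called genes per list and direction by size of difference, and the 3 probes most correlated with each member. Where a probe was detected on no array of 1 group, the other group's mean was set against the lowest detected signal of each array or the probe's own. Alternatives changed the background correction, offset, scaling, filter, prior variance, test, pairing, arrays and probes per gene. No per-sample column was left unused. The probes most like TNNT1 are not reported here.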

Additional observations from a re-analysis of the deposited data

How the results depend on the processing

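Of 17 alternative settings, 17 kept TNNC2 and *Park7* past the threshold and 16 kept TNNT3. The exception for TNNT3 was without siDJ-1 replicate 3, and its values with 1 array left out ran from -0.57 to -0.44. TNNI2 was no longer past the threshold at -0.026 with scaling to the 75th percentile, at -0.082 with that scaling and no background correction, at -0.31 without a filter and at -0.31 with the replicate block, and with 1 array left out it ran from -0.34 to -0.26. TNNC1 turned to 0.12 and 0.064 under these scalings and TNNI1 to 0.040 under the first. A trended, robust prior variance called 5 troponins lower, adding TNNC1 (-0.12) and TNNT1 (-0.24), as did an unpaired t-test before adjustment (5). After adjustment that t-test added TNNC1 (-0.12). Of all 17890 tested probes 3030 were called lower with the trended prior, against 2430 in the main setting. The t-test called 3172 lower before adjustment and 1680 after it. The unpaired t-test put the shift of TNNC1 against TNNC2 (0.70) and of TNNT1 against TNNT3 (0.28) past the threshold, before and after adjustment. With 1 array left out 1 to 2 troponins were called lower, and 2444 to 5302 probes in all (1187 to 2408 lower, 1257 to 2894 higher). Without a filter 3519 probes were called, 1611 lower and 1908 higher, among 45281 tested. The cause of these changes was not tested.

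Same-numbered samples deviated together only weakly (r of 0.054, 0.047 and 0.020), each with its own number the most. The labels do not say whether equal numbers were paired, and these values do not settle it. With the replicate block 4 muscle list counts also changed by over 1.5 times: slow fibre genes to 1 lower and 0 higher, developmental genes to 2 lower, and transcription factors to 2 higher. Fast fibre genes, transcription factors and calcium genes each had 1 fewer lower.

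List counts with 1 array left out ran from 3 to 6 lower and 0 to 1 higher for thin filament partners, 1 to 4 and 0 to 1 for slow fibre genes, 7 to 10 lower for fast fibre genes, 2 to 4 lower for developmental genes, 0 to 3 higher for transcription factors, and 1 to 3 lower and 1 to 2 higher for calcium genes. Thin filament partners called higher were 3 with either scaling to the 75th percentile or the trended prior, 2 by the unpaired t-test before adjustment and 0 after it, and 0 without a filter, and 3 genes were lower with probes averaged per gene. Slow fibre genes had 1 lower with the first scaling, 1 lower and 0 higher without a filter, and 0 higher with probes averaged. Developmental genes had 2 higher with either scaling or the trended prior, 1 higher by the t-test before adjustment and 1 lower after it, and 2 lower without a filter or with probes averaged. Transcription factors had 3 higher with no background correction under either scaling or with the trended prior, 2 higher with an offset of 50, with the first scaling and by the t-test before adjustment, and 5 lower and 0 higher with probes averaged. Calcium genes had 2 lower and 1 higher without a filter or with probes averaged, 7 lower by the t-test before adjustment, and 1 lower and 1 higher after it. Signal over background limits what TNNI3 can show, and 3 arrays a group limit every p.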
